A study of Drosophila melanogaster with 24 samples.

Results

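The vacuolar proton pump of the Drosophila melanogaster head was followed through the mRNAs of its subunits in young and old flies over the day. Every row of the deposited young and old gene tables whose gene name starts with Vha was taken as a member, which gave 33 of 17637 genes. Of these, 20 had a mean of at least 1 FPKM (sequenced fragments relative to transcript length and to the size of the library) over all libraries and were tested, beside 9564 genes in all that passed the same filter. Lists of related genes and of cell type markers were set beside them.

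The libraries came from pooled heads of w[1118] females, a white-eyed laboratory strain, kept at 25 °C in 12 h of light and 12 h of dark. Young flies were 5 days and old flies 55 days old, and heads were collected every 4 h from lights on (ZT0) to ZT20, with 2 biological replicates for each age and time, which gave 12 libraries per age and 24 in all. The tables name their columns by hour over 2 daily cycles, so a replicate is called here by its cycle. FPKM holds no read numbers, so the depth of a library is unknown, and errors given here are the spread over libraries. Because whole heads were used, fewer cells of a type and less RNA per cell cannot be told apart.

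The vacuolar ATPase is a rotary machine that uses ATP to move protons into lysosomes, endosomes and secretory and synaptic vesicles. Its cytosolic V1 sector (subunits A to H) hydrolyses ATP, and its membrane V0 sector (subunits a, c, c'', d and e) carries the protons. Several subunits are encoded in the fly by small families of paralogous genes, and in neurons the pump makes the proton gradient that loads neurotransmitter into vesicles.

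The head used one gene, or a few, for each subunit. Among the 33 genes, 13 encode V1 subunits, 18 encode V0 subunits and 2 encode accessory proteins (VhaAC45 and VhaM8.9, the fly homologue of the prorenin receptor ATP6AP2). They lie on 5 chromosome arms, with 6 genes on 2L, 8 on 2R, 5 on 3L, 12 on 3R and 2 on X. The members that did not pass the filter were 13 paralogs, each with a mean below 0.2 FPKM: Vha68-3 (A), Vha36-2 (D), Vha14-2 (F), Vha100-3, Vha100-4 and Vha100-5 (a), Vha16-2, Vha16-3, Vha16-4 and Vha16-5 (c), VhaPPA1-2 (c''), VhaAC39-2 (d) and VhaM9.7-d (e). Vha16-2, Vha16-3 and VhaM9.7-d were listed at 0 in every library. Each of these subunits kept at least 1 other gene above the filter, so that every subunit was represented among the 20 genes tested.

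Levels within the 20 genes spanned from Vha36-3, the lowest, to Vha16-1, the highest. Vha16-1 encodes the proteolipid c, which is present in several copies in the membrane ring of each pump, and ranged from 806 FPKM through a median of 1018 to 1260 FPKM in young libraries and from 763.5 through 967 to 1135 FPKM in old ones. The young and old values of Vha16-1 overlapped over most of their range. Vha55, which encodes the single B subunit that binds ATP next to the catalytic A subunit, was the second highest. Both genes of the large membrane subunit a were low by comparison, with means in young flies of 40.7 FPKM for Vha100-1 and 28.5 FPKM for Vha100-2.

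**Figure D1:**
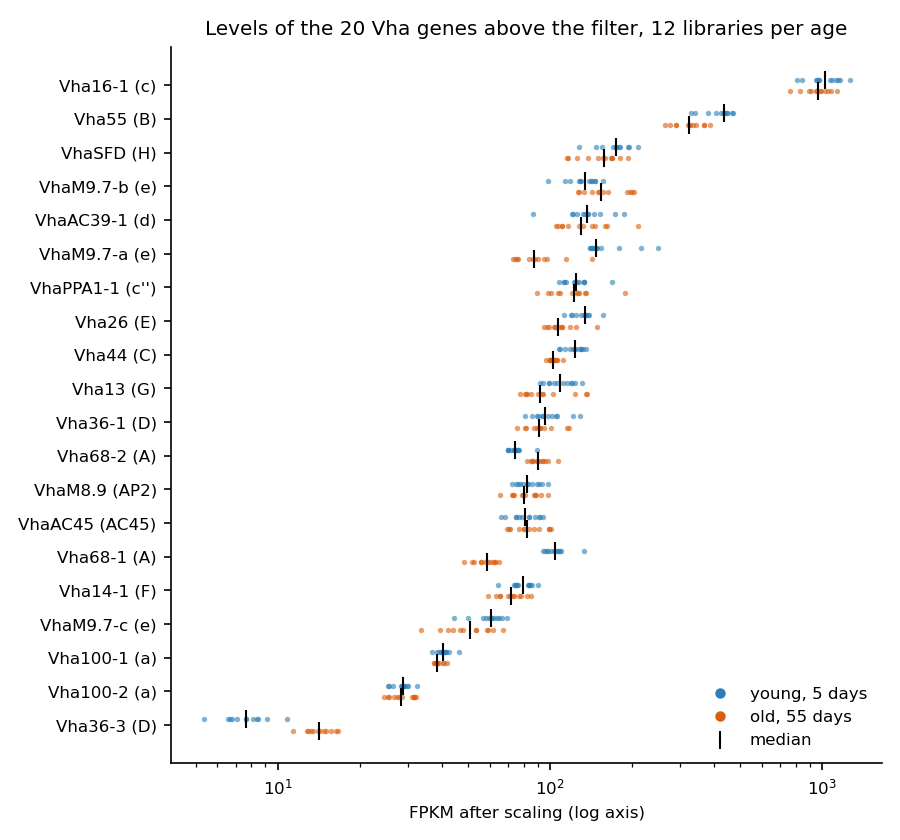
Level of the 20 Vha genes that passed the filter, in FPKM after scaling on a log axis, with the subunit in parentheses. Each point is 1 library (12 young in blue, 12 old in orange) and the black tick is the median; the points of Vha68-1 and of Vha36-3 do not overlap between ages, whereas those of Vha16-1, the highest member, do.

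To compare ages, the libraries were first put on one scale by the median ratio of their genes to the mean library. This mattered, since the deposited values of old libraries lay on average 0.22 (log2) above those of young ones, and the scale factor moved over the day by 0.19 at each age, highest at ZT0 and lowest at ZT12. Values below are scaled FPKM unless stated otherwise. Age was tested by limma on log2(FPKM + 1) with all times of day of an age as its replicates, and a gene was called where the Benjamini-Hochberg adjusted P value over all genes tested did not exceed 0.01.

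With age the pump genes did not move as a block. Vha68-1 and VhaM9.7-a fell to 0.55 and 0.56 of their young mean, while Vha68-2, the paralog of Vha68-1, and Vha36-3 rose to 1.22 and 1.84 times theirs. In all, 2 of the 20 genes rose and 5 fell, where 20.2% of all genes tested rose and 21% fell (41.2% in either direction). Of the 10 V1 genes 2 rose and 4 fell, of the 8 V0 genes 1 fell, and neither accessory gene passed the test. The log2 fold change was negative in 15 of the 20 genes and in 47.1% of all genes, with a median of -0.09 beside 0.02 for all genes tested. This balance depended on the scaling. Without any scaling the median of all genes lay at 0.22, and 6 Vha genes rose and 2 fell (all genes 43.5% and 10.8%). With each library set to the same sum the median of all genes was 0.14, and 3 Vha genes rose and 2 fell (all genes 29.8% and 12.9%).

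**Figure D2:**
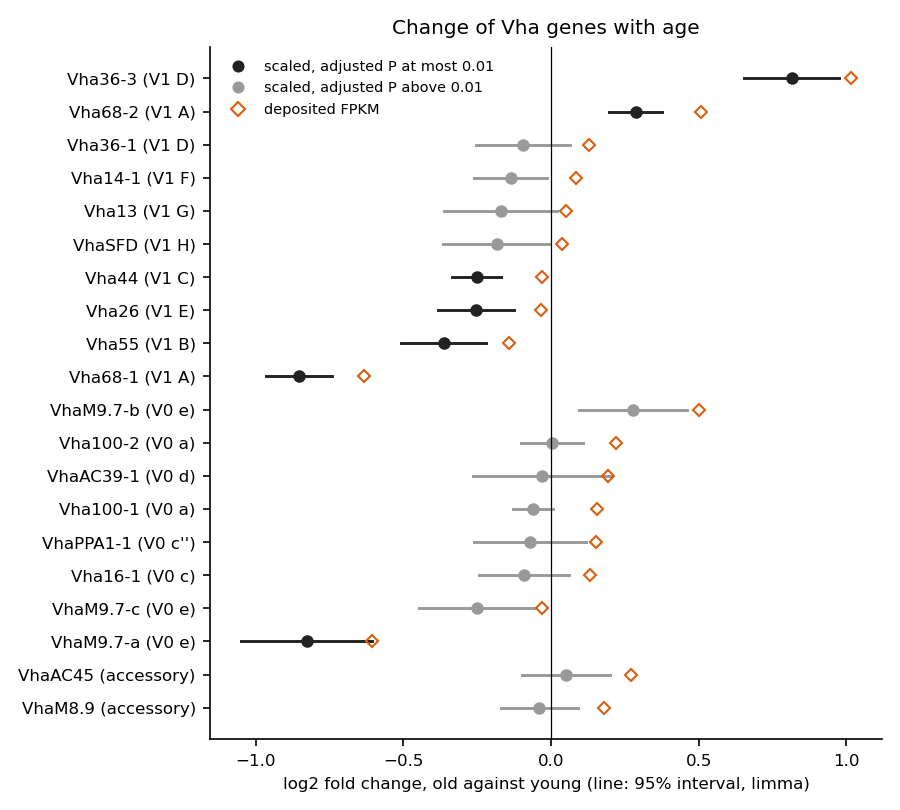
Log2 fold change of old against young flies for the 20 Vha genes, grouped by sector. Circles give the scaled estimate with its 95% interval from limma (black, adjusted P value up to 0.01; grey, above it) and open diamonds the estimate on the deposited FPKM, which lies to the right; Vha68-1 and VhaM9.7-a stay well below 0 and Vha36-3 and Vha68-2 above 0 on both scales.

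The catalytic A subunit showed the clearest exchange. Vha68-1 measured 94.5, 104.6 and 132.7 FPKM (lowest, median and highest) in the 12 young libraries and 48.4, 58.5 and 64.9 FPKM in the 12 old ones. Every old library lay below every young one, a separation downwards that 7.09% of all genes showed. The log2 fold change of Vha68-1 was -0.85 ± 0.05 (SE; limma, adjusted P = 1.67e-12). Its paralog Vha68-2 measured 69.8, 74.3 and 89.3 FPKM in young and 81.9, 90.3 and 106.9 FPKM in old libraries. These ranges overlapped slightly, because 1 young library of ZT20 reached into the old range, but at each of the 6 times of day both old libraries lay above both young ones. The share of all genes with such a separation by time of day, here and below, was not counted. The log2 fold change of Vha68-2 was 0.29 ± 0.04 (SE; limma, adjusted P = 5.26e-06).

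Both genes, with the near-silent Vha68-3 between them, lie in one stretch of chromosome 2L (BDGP6, the build of the files). Vha68-2 spans chr2L:12974322-12978607 on the plus strand, and Vha68-3 starts 178 bases after its end, at chr2L:12978786-12981293 on the same strand. Vha68-1 lies a further 19476 bases away, at chr2L:13000770-13004107 on the minus strand. Vha68-3 was above 0 in 3 young and 10 old libraries, with means of 0.0059 and 0.035 FPKM, too low for the test.

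Because FPKM is per length, the paralogs of a subunit can be expressed as shares of its summed level within a library, a measure that no scaling of the library changes. Vha68-1 made up 58.4% ± 2.31 (SD, n = 12) of the A subunit mRNA in young flies, with a range of 55.0% to 64.0%. In old flies its share was 38.7% ± 2.48 (SD, n = 12), from 33.9% to 42.4%. The ranges were separate, and the order of the 2 paralogs was reversed: Vha68-1 was the main A gene in all young libraries and Vha68-2 in all old ones. The share differed by a two-sided permutation test (P = 2e-05, the smallest that 100000 resamples can give; adjusted P = 3e-05 over the 6 shares tested). How often the shares of paralogs in other gene families changed or separated between ages, here and below, was not counted. The sum of the A genes was 180 ± 12.5 FPKM (SD) in young and 149 ± 9.18 FPKM in old flies, and its ranges overlapped.

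The small hydrophobic e subunit of V0 also shifted between its paralogs. VhaM9.7-a measured 139.8, 147.7 and 248.1 FPKM in young and 73.3, 86.9 and 142.2 FPKM in old libraries. The ranges met at a single old library, ZT16 of cycle 2, and at all 6 times both old libraries lay below both young ones. VhaM9.7-a fell by 0.83 on the log2 scale (-0.83 ± 0.11, SE; limma, adjusted P = 4.66e-07). VhaM9.7-b measured 98.6, 134.4 and 157.0 FPKM in young and 126.4, 154.2 and 202.6 FPKM in old libraries, with wide overlap. Its log2 fold change of 0.28 (95% interval 0.10 to 0.46) narrowly missed the threshold, at an adjusted P value of 0.0103 (limma), and it passed when any of 7 libraries was left out, for example old ZT4 of cycle 2 (adjusted P = 0.0048). VhaM9.7-c had means of 59.7 and 50.6 FPKM and a log2 fold change of -0.25 (adjusted P = 0.028, limma).

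As shares of the e subunit, VhaM9.7-a went from 45.5% ± 4.06 (SD, n = 12) in young to 29.8% ± 2.93 in old flies, and VhaM9.7-b from 37.4% ± 2.86 to 53.1% ± 4.6. Neither share overlapped between ages. The share of VhaM9.7-a was 41.5% to 53.4% in young and 26.3% to 36.7% in old libraries, and that of VhaM9.7-b 32.9% to 41.7% and 45.2% to 60.0% (permutation test, adjusted P = 3e-05 for each). VhaM9.7-c held 17.1% at both ages (adjusted P = 0.99). The shares of a subunit sum to 100% and are not independent. The summed e level was 355 ± 43.8 FPKM (SD) in young and 304 ± 37.7 FPKM in old flies. VhaM9.7-c overlaps Teh2 on the same strand and CG18675 on the other, so its reads may be shared with theirs. It shares an arm with VhaM9.7-a (chr3L:4262705-4263464, plus strand), whose start lies 75839 bases beyond its end.

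The D subunit, part of the central shaft that couples ATP hydrolysis to rotation, was dominated by Vha36-1 at both ages. Vha36-3, on the X chromosome, measured 5.34, 7.63 and 10.8 FPKM in young and 11.3, 14.2 and 16.7 FPKM in old libraries. Every old library exceeded every young one, a separation upwards shown by 4.59% of all genes. The log2 fold change of Vha36-3 was 0.81 ± 0.08 (SE; limma, adjusted P = 2.82e-09). Vha36-1 measured 80.5, 96.1 and 128.6 FPKM in young and 75.5, 91.4 and 116.9 FPKM in old libraries and did not pass (log2 fold change -0.09, 95% interval -0.25 to 0.07; adjusted P = 0.32, limma). Accordingly the share of Vha36-1 in the D subunit was 92.8% ± 1.06 (SD, n = 12) in young and 86.6% ± 1.73 in old flies, with separate ranges of 91.2% to 94.8% and 83.2% to 89.1% (permutation test, adjusted P = 3e-05). The summed D level was 107 FPKM at both ages.

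The a subunit gave a contrast to these families. Vha100-1, the isoform known from fly neurons and synaptic vesicles, measured 36.7, 40.5 and 46.4 FPKM in young and 37.4, 38.4 and 41.8 FPKM in old libraries. Vha100-2 measured 25.4, 28.7 and 32.5 FPKM and 24.4, 28.2 and 32.2 FPKM. For both, the values of old flies lay almost wholly within those of young flies. The log2 fold changes were -0.06 for Vha100-1 (95% interval -0.13 to 0.01; adjusted P = 0.12, limma) and 0.0038 for Vha100-2 (-0.10 to 0.11; adjusted P = 0.96, limma). On the deposited FPKM both estimates were higher in old flies, at 0.16 and 0.22 (adjusted P = 0.0037 and 0.0031, limma). The share of Vha100-1, free of scaling, was 58.8% ± 2.44 (SD, n = 12) in young and 57.6% ± 2.67 in old flies (permutation test, adjusted P = 0.34). Each of these genes overlaps another on the opposite strand, Alg13 for Vha100-1 and Vti1b for Vha100-2.

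**Figure D3:**
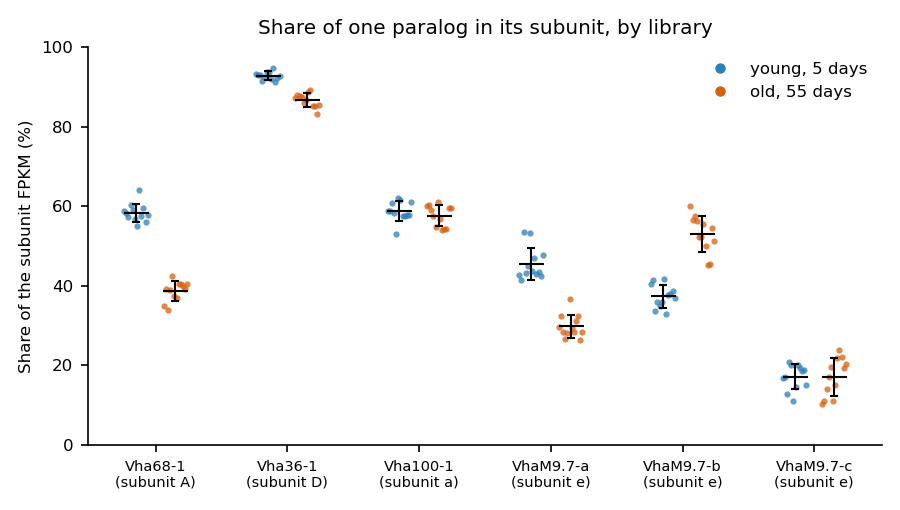
Share of one paralog in the summed FPKM of its subunit, in percent, for the 6 shares tested. Each point is 1 library (blue, young; orange, old; 12 each), and the black bar gives the mean with its SD; the shares of Vha68-1, Vha36-1 and VhaM9.7-a are lower and that of VhaM9.7-b higher in every old library than in any young one, and those of Vha100-1 and VhaM9.7-c overlap.

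**Figure D4:**
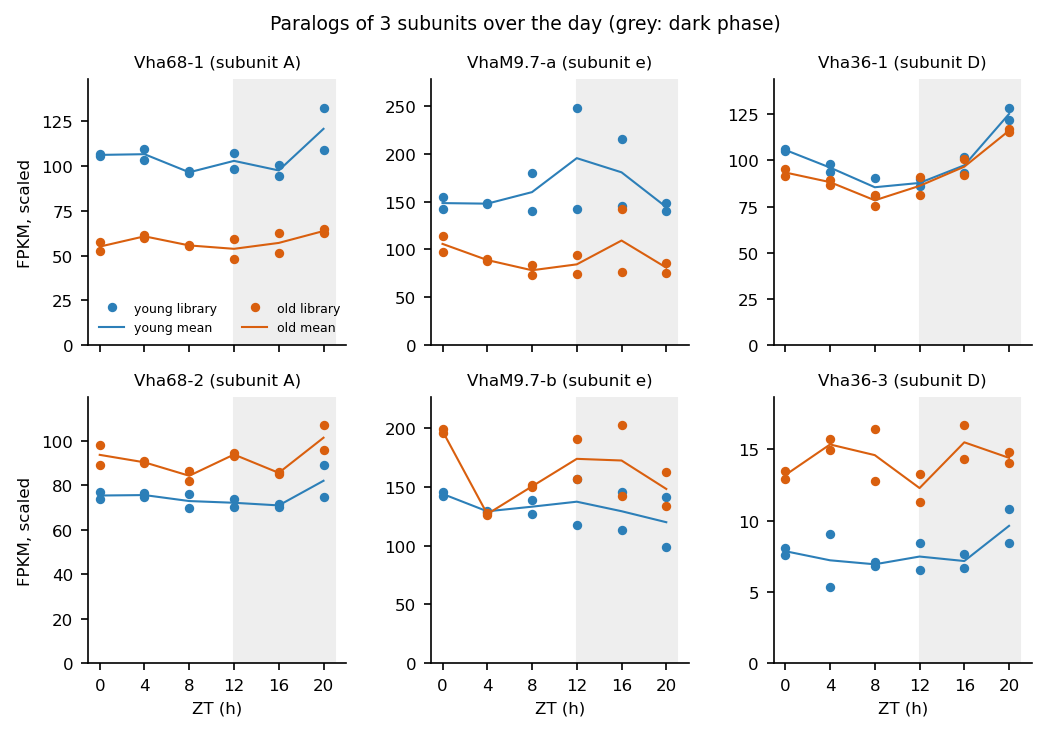
Scaled FPKM against time of day (ZT, in h; dark phase in grey) for pairs of paralogs of the A, e and D subunits. Points are libraries, 2 for each age and time, and lines join their means; Vha68-1 and VhaM9.7-a are lower and Vha68-2 and Vha36-3 higher in old flies at all 6 times.

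A further 3 V1 subunits with a single gene above the filter fell by smaller amounts. Vha55 (B) measured 330.3, 434.4 and 468.4 FPKM in young and 264.6, 324.8 and 388.0 FPKM in old libraries, and both old libraries lay below both young ones at 4 of 6 times. Its log2 fold change was -0.36 ± 0.07 (SE; limma, adjusted P = 0.000108). Vha44, the C subunit that holds the 2 sectors together and leaves the pump when it disassembles, measured 108.0, 123.1 and 135.7 FPKM in young and 96.2, 102.4 and 111.2 FPKM in old libraries. The ranges overlapped at their edges, with both old libraries below both young ones at all 6 times. For Vha44 the log2 fold change was -0.25 ± 0.04 (SE; limma, adjusted P = 8e-06). Vha26, the E subunit of the outer stalks, measured 112.5, 133.8 and 156.1 FPKM in young and 95.04, 106.7 and 148.0 FPKM in old libraries. Of the 12 old libraries 9 lay below the young range, and the log2 fold change was -0.25 ± 0.06 (SE; limma, adjusted P = 0.0013). These 3 calls, unlike the 4 above them, depended on the scaling: on the deposited FPKM the log2 fold changes were -0.14 for Vha55, -0.03 for Vha44 and -0.03 for Vha26, with adjusted P values of 0.11, 0.61 and 0.67 (limma). With each library set to the same sum they were -0.23, -0.12 and -0.12, and none passed. Vha44 also overlaps Hmgs on the opposite strand.

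The remaining members did not pass the age test with age alone in the model. With time of day as a factor beside age, Vha14-1 passed as lower and VhaM9.7-b as higher (adjusted P = 0.0056 and 0.0040, limma), so that 3 genes rose and 6 fell (all genes 24.1% and 24.4%). The same model on the deposited FPKM, chosen after seeing the data, gave 8 that rose and 2 that fell (all genes 50.3% and 13%). Among the members that did not pass with age alone were Vha14-1 (F), Vha13 (G) and VhaSFD (H) of the V1 sector. Their means in young and old flies were 79.1 and 72.0 FPKM, 109.5 and 98.5 FPKM, and 173.7 and 153.5 FPKM. Their log2 fold changes lay at -0.14, -0.17 and -0.18 (adjusted P = 0.0596, 0.13 and 0.0799, limma). The 95% intervals ran from -0.26 to -0.013, from -0.36 to 0.022 and from -0.36 to -0.0046. In the V0 sector VhaPPA1-1 (c'') went from 126 to 122 FPKM and VhaAC39-1 (d), which links the ring to the shaft, from 138 to 136 FPKM. Vha16-1 had a log2 fold change of -0.09 (95% interval -0.24 to 0.06; adjusted P = 0.32, limma). VhaAC45 and VhaM8.9, the accessory proteins, had means of 81.0 and 83.7 FPKM in young and 84.1 and 81.6 FPKM in old flies.

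Over the day, a 24 h rhythm was tested at each age by the F test of a cosine and a sine term in one limma model of all libraries, with calls at an adjusted P value up to 0.05. Vha36-1 (D), Vha14-1 (F) and Vha16-1 (c) were rhythmic at both ages, and VhaPPA1-1 (c'') passed in old flies. This made 3 of 20 genes in young flies, where 15.2% of all genes passed, and 4 in old flies, where 14% did. The 3 genes that passed at both ages stand beside 7.41% of all genes. On the deposited FPKM, whose library factors vary over the day, 7 Vha genes passed in young flies (all genes 21.7%). With time of day as a factor in place of the 24 h terms, only Vha36-1 passed at both ages, beside 729 of all 9564 genes. Vha14-1 then did not pass in young flies (adjusted P = 0.060, limma). Vha16-1 (0.073) and VhaPPA1-1 (0.20) did not pass in old flies, where Vha13 and VhaM9.7-c did.

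Vha36-1 had the smallest P value of the members at both ages and was called in all 24 fits that left out 1 library. In young flies it measured 128.6 and 121.6 FPKM in the libraries of ZT20, above all others, and 80.5 and 90.4 FPKM at ZT8. In old flies it measured 116.9 and 115.2 FPKM at ZT20 and 81.3 and 75.5 FPKM at ZT8. The fitted amplitude, the log2 distance from the mean level to the peak, was 0.24 with a peak at ZT 21.2 in young and 0.23 with a peak at ZT 19.9 in old flies (limma, adjusted P = 0.0014 and 0.0027).

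Vha14-1, which with the D subunit forms the central shaft, also peaked near lights on. Its young libraries measured 90.5 and 84.2 FPKM at ZT0 and 64.3 and 74.3 FPKM at ZT16, and its old libraries 85.0 and 82.4 FPKM at ZT0 and 59.1 and 65.6 FPKM at ZT12. Its amplitude reached 0.15 at the young and 0.18 at the old age (log2; limma, adjusted P = 0.021 and 0.0059). Without the young library of ZT0, cycle 1, the rhythm of Vha14-1 in young flies no longer passed (adjusted P = 0.066).

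Vha16-1 was highest late in the light phase. It measured 1260 and 1064 FPKM at ZT12 and 806 and 844 FPKM at ZT20 in young flies. In old flies it measured 1135 and 1022 FPKM at ZT12 and 763.5 and 830.6 FPKM at ZT0. The amplitude was 0.24 with a peak at ZT 8.36 in young and 0.18 with a peak at ZT 11.4 in old flies (log2; limma, adjusted P = 0.0038 and 0.030). The call in old flies was lost when any of 5 libraries was left out: those of ZT0 in cycle 1 (adjusted P = 0.11) and cycle 2 (0.070), ZT8 in cycle 2 (0.060), ZT12 in cycle 1 (0.089) and ZT20 in cycle 1 (0.0505). On the deposited FPKM it was lost as well (amplitude 0.10, adjusted P = 0.17).

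VhaPPA1-1, a second proteolipid of the ring, measured 106.8 and 187.7 FPKM at ZT16 and 89.6 and 98.0 FPKM at ZT4 in old flies. The higher ZT16 library lay far above its partner, and leaving it out lowered the amplitude from 0.27 to 0.20 (adjusted P = 0.15, in place of 0.048; limma). The call held in 3 of 24 fits that left out 1 library. In young flies the amplitude was 0.09 (adjusted P = 0.70).

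**Figure D5:**
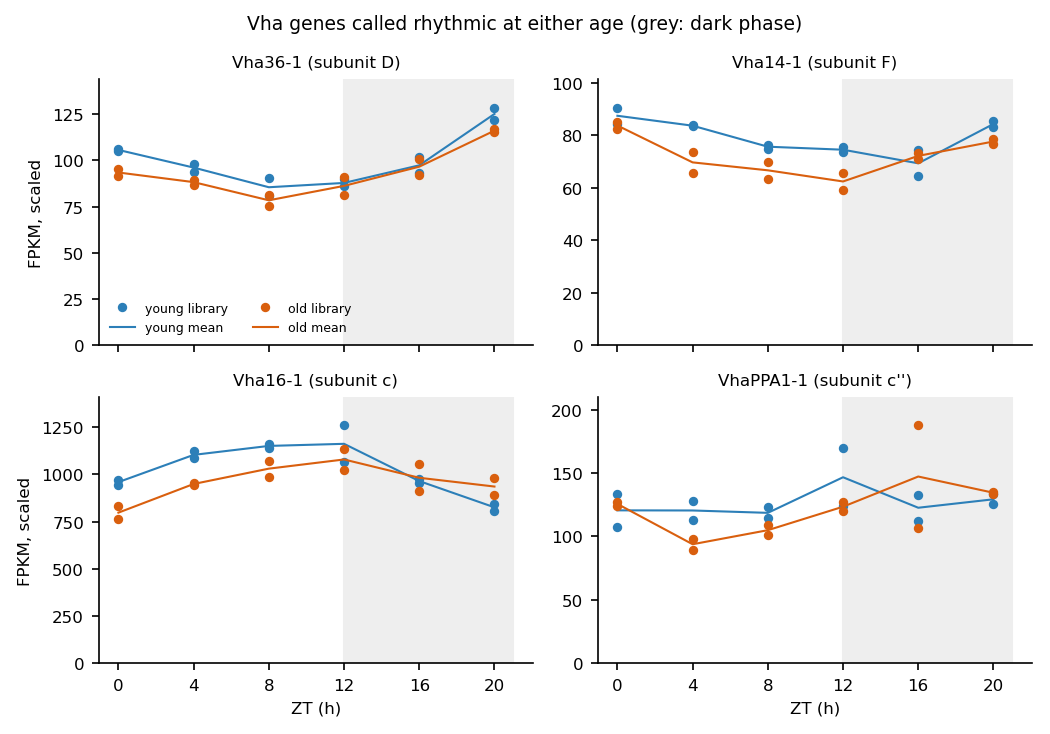
Scaled FPKM against time of day (ZT, in h; dark phase in grey) for the 4 Vha genes called rhythmic at either age. Points are libraries, 2 for each age and time, and lines join their means; Vha36-1 is highest at ZT20 and Vha16-1 at ZT12 at both ages, and one old library of VhaPPA1-1 at ZT16 stands far above its partner.

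A rhythm that passed at one age was not thereby shown to differ from the other age. The difference itself, tested by comparing the 24 h terms between ages, passed in 0 of 20 Vha genes and in 0.22% of all genes (limma, adjusted P value up to 0.05). The lowest adjusted P value was 0.78, for Vha16-1. Before adjustment, 1 gene, again Vha16-1, passed at 0.05, where 6.37% of all genes did. With time of day as a factor in place of the 24 h terms 0 Vha genes passed after adjustment, where 54 of all 9564 genes did.

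Related gene lists are given beside the same shares of all genes, 20.2% higher and 21% lower. Of 18 lysosomal enzymes and membrane proteins tested, 5 rose and 1 fell with age, with a median log2 fold change of 0.15. On the deposited FPKM 11 rose and 1 fell, where 43.5% of all genes rose and 10.8% fell. With equal sums 10 rose and 1 fell, where 29.8% of all genes rose and 12.9% fell. The 5 that rose on scaled values were the proteases cathD (185 to 312 FPKM; log2 fold change 0.75), CtsB1 (0.45), Cp1 (0.40), CG12163 (0.35) and 26-29-p (0.29). The gene that fell was Ect3, a beta-galactosidase (-0.78). All 5 transporters that use the proton gradient to fill synaptic vesicles fell: VGAT for GABA (-0.88), VAChT for acetylcholine (-0.83), VGlut for glutamate (-0.74), Vmat for monoamines (-0.52) and prt (-0.46). These 5 falls were called under both other scalings as well. CG31030, related to the accessory subunit AC45, fell from 22.4 to 14.7 FPKM (-0.58, adjusted P = 9.7e-08, limma), and the assembly factors Rbcn-3A and Rbcn-3B did not pass. Mitf, the transcription factor known in flies to activate V-ATPase genes, had means of 75.7 and 65.5 FPKM and did not pass (-0.21, adjusted P = 0.065, limma). RagA-B, a GTPase that senses amino acids at the lysosome with the pump, rose (0.31), and its partner RagC-D passed under the other scalings alone (0.26 on the deposited FPKM). Of the 13 genes of the mitochondrial ATP synthase, a related rotary machine that runs in the other direction, 10 fell and 0 rose, with a median of -0.44 (4 fell on the deposited FPKM and 8 with equal sums, where 10.8% and 12.9% of all genes fell, and 0 rose on either).

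Markers of cell types moved with age as well. All 4 neuronal markers (elav, nSyb, brp and Syt1) fell, with a median log2 fold change of -0.58, and their summed level was 896 to 1357 FPKM in young and 524 to 846 FPKM in old libraries. On the deposited FPKM 3 of the 4 fell. Of 4 photoreceptor markers 2 fell (norpA and Arr2; 0 under the other scalings), of 4 glial markers moody rose and Eaat1 fell, and of 4 markers of head fat body and haemocytes Hml rose and Yp1 and Yp2 fell. Markers of testis (summed at most 1.0 FPKM) and of ovary (at most 4.49 FPKM) did not reach the filter, and of 4 markers for gut and Malpighian tubule 1, Irk2, did. The part of these shifts in the fall of Vha68-1 and VhaM9.7-a and in the rise of Vha68-2 and Vha36-3 was not tested.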

How the data were processed

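RNA from female heads was sequenced as poly(A)-selected, strand-specific libraries, with young and old samples run in the same lanes. The authors filtered reads with skewer, aligned them with TopHat 2.0.14 to BDGP release 6.06 (dm6), and computed and deposited FPKM per gene with Cuffdiff (Cufflinks 2.2.1). Whether counting used strand, and how shared reads were split between paralogs, is not given in the sources used here. The deposited tables also hold the authors' own results of a rhythm test (P value, q-value, phase, period and amplitude), which were not used.

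From the FPKM, 235 pre-microRNA hairpins were left out, each library was divided by the median, over 9159 genes, of its ratios to the mean library, and genes with a mean of at least 1 FPKM were tested as log2(FPKM + 1) in limma 3.58.1 (R 4.3.3, eBayes with trend) with Benjamini-Hochberg adjustment over all genes. Fold changes on this scale understate the change of low genes. The fits were also run on simulated data with independent noise for each gene and library, which holds no deviations shared by the genes of a library. Shares used 100000 resamples (scipy 1.17.1). Replicates were stated to be biological, and P values measure the spread between these libraries.

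Genes given with values by library were those called for age or rhythm, those of subunits with at least 2 genes above the filter, and the highest and lowest member, and the other members by their means; of other lists, the 4 smallest adjusted P values, with further genes named after their values were seen. The members and lists were chosen with earlier results of these data known. Alternatives were other scalings, pseudocount 0.1, filters, thresholds, time of day as a factor, the replicate block and leaving out libraries. Coordinates are from Ensembl's BDGP6 annotation, in which VhaM8.9 is named ATP6AP2. Sequences were not used here.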

Additional observations from a re-analysis of the deposited data

How the results depend on the processing

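The falls of Vha68-1 and VhaM9.7-a, the rises of Vha68-2 and Vha36-3 and the 4 changed shares kept their call under every alternative run. With age, 2 Vha genes rose and 5 fell. On the deposited FPKM 6 rose and 2 fell (all genes 43.5% and 10.8%), with time of day as a factor on the same values 8 rose and 2 fell (50.3% and 13%; chosen after seeing the data), and with each library set to the same sum 3 rose and 2 fell (29.8% and 12.9%). In young flies 7 Vha genes were rhythmic on the deposited FPKM in place of 3 (all genes 21.7% in place of 15.2%). In old flies 2 were rhythmic with no filter in place of 4, where 1150 of 15737 genes in all passed (14% of all genes in the main fit). Likewise 2 passed on untransformed and detrended values, and 2 where the maximum had to be at least 1.5 times the minimum. For these last settings the share of all genes is not given. With no filter 8 shares changed in place of 4, since more shares were tested. On the deposited FPKM, with or without the time factor, the log2 fold change with age turned positive for Vha100-1 (0.16), Vha13 (0.0502), Vha14-1 (0.0845), Vha16-1 (0.13), Vha36-1 (0.13), VhaAC39-1 (0.19), VhaM8.9 (0.18), VhaPPA1-1 (0.15) and VhaSFD (0.0377). Of these, Vha14-1 was called on scaled values with time of day as a factor, as lower. With equal sums it did so for Vha100-1 (0.0712), Vha16-1 (0.045), Vha36-1 (0.0408), VhaAC39-1 (0.106), VhaM8.9 (0.0941) and VhaPPA1-1 (0.064).

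Over all fits that left out a replicate or a library, 4 to 8 Vha genes changed with age, of which 2 to 3 rose and 2 to 5 fell. Rhythmic genes numbered 0 to 4 at each age, changed rhythms 0 and changed shares 4. The counts of 0 rhythmic genes came from leaving out a whole cycle, which left 1 library for each age and time. Without cycle 1, the falls of Vha26 (adjusted P = 0.16), Vha44 (0.013) and Vha55 (0.023) did not pass, nor did that of Vha55 without cycle 2 (0.0102; all limma). The log2 fold change with age of Vha100-2 lay between -0.0115 and 0.0235, of VhaAC39-1 between -0.0894 and 0.0126 and of VhaPPA1-1 between -0.21 and 0.0682 over these fits.

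Replicate numbers were shared between ages, but libraries of the same number did not deviate together at every time (correlation of deviations -0.06 to 0.28 over the 6 times). With a replicate block 7 Vha genes changed with age, 2 higher and 5 lower, where 1890 of all 9564 genes were higher and 1988 lower. Of the Vha genes 3 were rhythmic in young and 3 in old flies (1338 and 1228 of all genes). VhaPPA1-1 no longer passed in old flies (adjusted P = 0.058, limma). Under the same block 4 shares changed (exact permutation within pairs, adjusted P = 0.000732). FPKM without read numbers sets no counting limit for the low paralogs.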

Other observations

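In old flies many pump genes differed between the first 2 times of the day, a comparison chosen after the values were seen and given without a test. Both libraries of ZT0 lay above both of ZT4 in 10 of the 20 Vha genes and below them in 8, where 32.2% and 32.4% of all genes did so. In young flies the numbers were 7 and 4 (22.9% and 24.8% of all genes). The time means differed by at least 1.2-fold in 9 genes in old flies (39.8% of all genes) and in 0 in young flies (17.9%).

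Directions were mixed within a sector and within a subunit. In old flies VhaM9.7-b had means of 198 FPKM at ZT0 and 127 FPKM at ZT4, VhaAC39-1 152 and 106 FPKM, and Vha13 136 and 81.2 FPKM. The opposite held for Vha55, with 277 FPKM at ZT0 and 378 FPKM at ZT4, for VhaM9.7-c, with 36.4 and 64.3 FPKM, and for VhaAC45, with 70.2 and 99.9 FPKM. The same genes also split between the 2 old libraries of ZT16. From cycle 1 to cycle 2, VhaAC39-1 went from 110.8 to 210.6 FPKM, VhaM9.7-b from 142.6 to 202.6 and Vha13 from 94.1 to 122.9. Over the same step Vha55 went from 335.6 to 275.0 FPKM, VhaM9.7-c from 53.3 to 42.3 and VhaAC45 from 90.8 to 80.5. Such a split is thus not particular to a difference in time of day, and its source was not tested. With time of day as a factor, Vha13 (adjusted P = 0.018, limma) and VhaM9.7-c (adjusted P = 0.046, limma) passed in old flies beside Vha36-1 and Vha14-1. Of all 9564 genes, 1549 passed in old flies in this model.

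The median Pearson correlation of the 190 pairs of Vha genes over the 12 libraries of an age was 0.01 at the young and 0.02 at the old age, a description of libraries that share their times of day. For all pairs of genes tested the median was 0.0011 at the young and 0.00011 at the old age. The closest pair was Vha55 with VhaM9.7-c in young flies (0.93) and VhaAC39-1 with VhaPPA1-1 in old flies (0.94). The old library of ZT16 in cycle 2 held the highest old value of 6 genes and the young library of ZT12 in cycle 1 the highest young value of 7, with VhaM9.7-a, VhaM9.7-b, VhaPPA1-1, Vha26 and VhaM8.9 in both sets. The share of all genes with their highest value in these libraries was not counted, so these counts are not shown to be particular to the pump genes.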
